A study of Mus musculus with 4 samples.

Results

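Ikzf2 encodes Helios, a zinc-finger transcription factor of the Ikaros family, and its mRNA carried 13 of the 4172 distinct NAT10 peaks of this series. The 13 peaks were found as all rows of the deposited list that name Ikzf2. The gene was chosen by its number of listed peaks, so that number and their strength are given as descriptions with no test. NAT10 is the acetyltransferase that places N4-acetylcytidine on RNA, and the stated purpose was to find mRNAs that it contacts directly, with blood stem cells in view. Binding was mapped by eCLIP, in which ultraviolet light fixes a protein to RNA in contact with it, the protein is collected with an antibody, and the fragments it holds are sequenced.

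All 4 libraries came from wild-type 32D cells, an established mouse line that grows in interleukin-3 (10 ng/mL here) and whose label reads bone marrow lymphoblastocytes. After crosslinking at 254 nm, 2 libraries were made from NAT10 immunoprecipitates (labelled IP rep1 and rep2) and 2 from input with no antibody (Input rep1 and rep2). The labels do not say whether the replicates were separate cultures. The list gives 1 log2 fold of immunoprecipitate over input and 1 -log10 p per peak for the series as a whole. No value per library is listed, so no spread between replicates can be given for any number here. No knockout or knockdown of NAT10 was among these libraries.

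Ikaros family proteins bind DNA through zinc fingers near one end and pair with each other through zinc fingers at the other end. They recruit chromatin complexes such as NuRD, which removes histone acetyl groups and moves nucleosomes, and they are best known for directing lymphocyte development. Helios is made in blood stem and progenitor cells, in T cells and above all in regulatory T cells, and it has been linked to the self-renewal of leukaemic stem cells.

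NAT10 peaks on Ikzf2 lay in 2 places, and the larger group was in the 3' UTR. The authors classed 10 of the 13 peaks as 3' UTR and 3 as exon, and none as 5' UTR. The 3' UTR share was 76.9%, against 57.6% of all listed peaks. An exact Clopper-Pearson 95% interval for the share, counting error only, was 46.2 to 95.0 and held the latter value. It treats the 13 peaks as independent, which peaks of the same transcript are not, so it is a description and no test. The gene lies on the minus strand of chromosome 1, so the mRNA reads from high to low coordinates (GRCm39, counted from 1). The exon peaks occupied 887 nt, chr1:69699706-69700592, and the 3' UTR peaks 7127 nt, chr1:69570825-69577951. Between these blocks lay 121754 nt of the gene without a listed peak. No peak of another gene was listed between the first and the last Ikzf2 peak, and none of the 13 was also assigned to another gene.

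The exon block was the upstream one and held the weakest peak of the gene. Peak 1, numbering from the 5' end of the mRNA, was 44 nt wide (chr1:69700549-69700592) and had a log2 fold of 4.98, which is 31.6-fold, with a -log10 p of 5.81. Peak 2 touched it (chr1:69700480-69700548, 69 nt) but had a log2 fold of 3.73, or 13.3-fold, with a -log10 p of 4.25. Only 9.44% of all listed peaks had a lower fold than peak 2. Peak 3 followed after 712 nt (chr1:69699706-69699767, 62 nt), with a log2 fold of 4.19 and 3.34 as its -log10 p, close to the lowest -log10 p in the list, 3.07. Of the exon peaks, then, peak 1 alone stood above the list median of 4.60.

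The 3' UTR block began with single, modest peaks, followed by a pair with a stronger member. Peak 4 opened it at chr1:69577874-69577951 with a log2 fold of 4.19 and 3.68 as its -log10 p. Peak 5 lay 779 nt further on (chr1:69577053-69577094), was the narrowest of the gene at 42 nt, and had a log2 fold of 4.55 with a -log10 p of 4.50. Both folds were below the median of the list. After 917 nt came a pair 389 nt apart. Peak 6 (chr1:69576056-69576135) reached a log2 fold of 5.05 with a -log10 p of 6.48, and peak 7 (chr1:69575561-69575666) had 4.60, exactly the list median, with a -log10 p of 4.95. Peak 6 was the strongest peak of the block outside its 3' end.

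A gap of 2111 nt, the longest within the block, separated these from a group of 3 peaks in the middle. Peak 8 (chr1:69573345-69573449) had a log2 fold of 4.50, with 5.46 as its -log10 p. Peak 9, only 26 nt away (chr1:69573273-69573318), had 4.43 with a -log10 p of 4.10. Peak 10 (chr1:69572960-69573013) again had a log2 fold of 4.50, with a -log10 p of 4.53. The folds of this group differed by less than 0.1 on the log2 scale, and all 3 were below the list median.

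The 3' end of the block carried the highest values. Peak 11 (chr1:69571493-69571579) had a log2 fold of 5.16, or 35.7-fold, with 7.68 as its -log10 p. Peak 12, 143 nt further on (chr1:69571298-69571349), had 5.08, or 33.9-fold, with a -log10 p of 7.27. Peak 13, the last of the mRNA (chr1:69570825-69570943), had the top values of the gene, a log2 fold of 5.79, which is 55.4-fold, and a -log10 p of 10.6. It was also the widest Ikzf2 peak, at 119 nt. Its fold exceeded that of 83.5% of all listed peaks. These 3 peaks lay within 755 nt, and no other 3' UTR peak of the gene reached the lowest of them, although peak 6 came within 0.1 on the log2 scale.

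**Figure D1:**
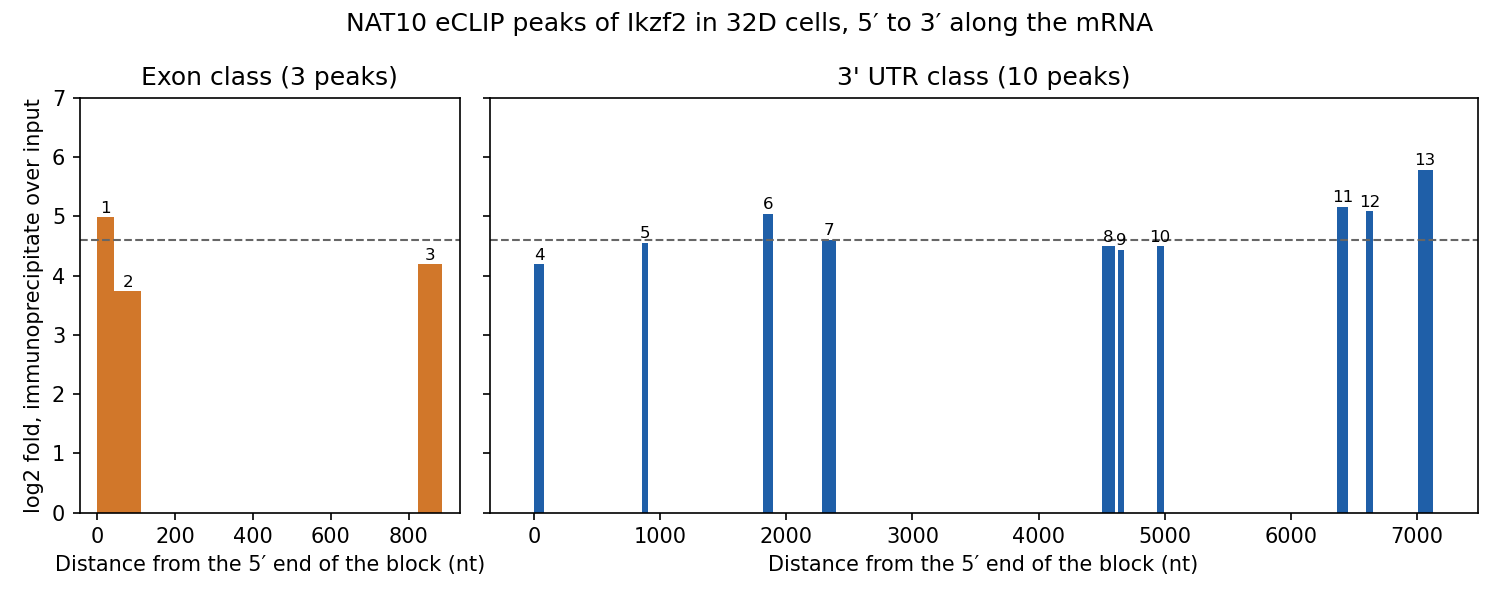
Log2 fold of immunoprecipitate over input (vertical axis) of the 13 Ikzf2 peaks, drawn to scale by position (horizontal axes, nt from the 5' end of each block; the 121754 nt between the blocks are left out), numbered 5' to 3'; bar width is peak width and the dashed line is the list median of 4.60. The last 3 bars of the 3' UTR, peaks 11 to 13, stand at 5.08 to 5.79, above the other peaks of that block.

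Strength thus tended to rise toward the 3' end of the Ikzf2 3' UTR. Over the 10 peaks, Spearman's rho between position along the mRNA and log2 fold was 0.63, given as a description since the points share 1 transcript and the same 4 libraries. With the strongest peak left out it was 0.49. Among the 89 genes with 5 or more 3' UTR peaks the median rho was 0.16 (interquartile range -0.11 to 0.54), and 16 had a higher rho than Ikzf2. The most 3' peak was the strongest one in 21.3% of those genes, Ikzf2 among them. Whether the rise is particular to Ikzf2 was not tested.

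The block was long but thinly covered. Peaks filled 769 of its 7127 nt (10.8%), with a median width of 79 nt, the same as the median over the whole list. The stretch from the first to the last 3' UTR peak had a median of 1845 nt over the 89 genes, and 18 of them, Ikzf2 included, spanned 7127 nt or more. These spans are genomic, so introns can add to them in other genes.

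In strength, Ikzf2 peaks were ordinary for the list. Their median log2 fold was 4.55 (range 3.73 to 5.79), or 23.5-fold, against 4.60 over all peaks (interquartile range 4.19 to 5.29). By fold, 5 of the 13 peaks lay above the list median, where 49.2% of all peaks do, 1 lay on it and 7 below it. By -log10 p, 5 of the 13 lay above the list median of 5.68, where 49.5% of all peaks do. Within the 3' UTR these were 4 of 10 by either measure, peak 6 and peaks 11 to 13. The list starts at a log2 fold of 3.00, so weaker contacts on Ikzf2 would not appear in it.

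**Figure D2:**
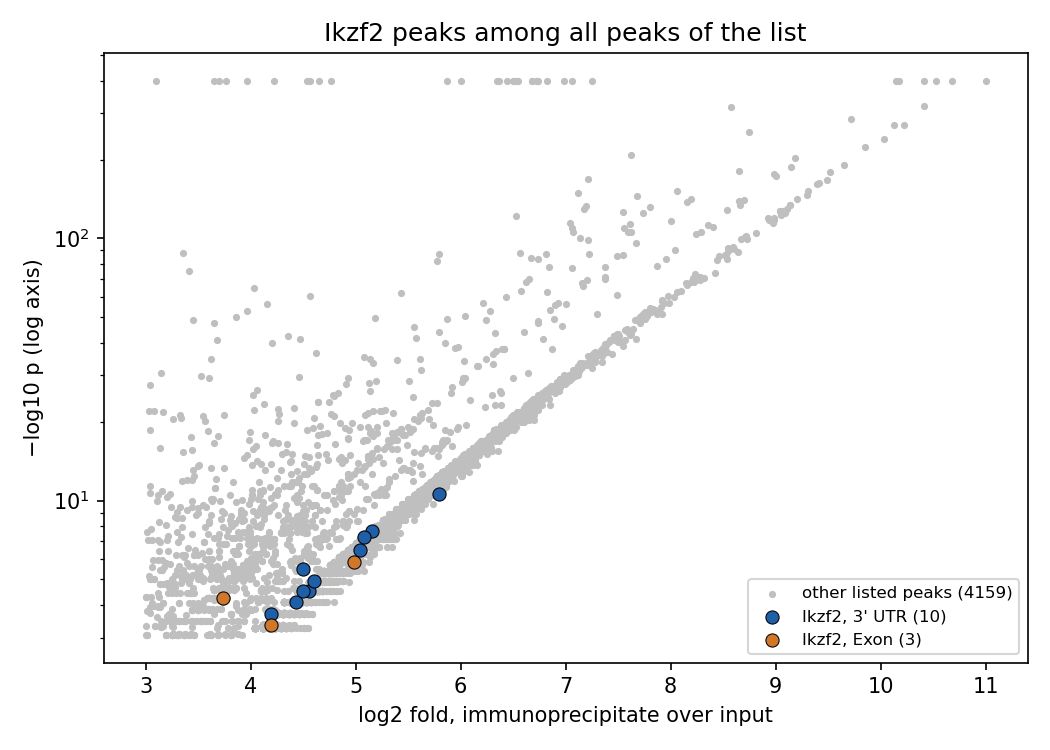
Log2 fold (horizontal axis) and -log10 p (vertical axis, log scale) of each listed peak; grey points are peaks of other genes, blue points the 10 Ikzf2 peaks of the 3' UTR and orange points the 3 in exons. The Ikzf2 peaks lie within the crowd, between log2 folds of 3.73 and 5.79 and -log10 p of 3.34 and 10.6.

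The folds can rest on few reads. The log2 folds of 82.8% of all listed peaks, and of 12 of the 13 Ikzf2 peaks, equal a constant plus the mean of 2 log2 read counts, as a single input read in each input library would give (whole number within 0.01). More input reads would also give a whole number where their product divides that of the immunoprecipitate reads. The 82.8% and the 12 of 13 are therefore upper limits for peaks with a single input read in each library. With a single input read assumed, the geometric mean of the immunoprecipitate reads was 10.5 per library for peaks 3 and 4 and 31.8 for peak 13. Its median was 13.7 over the 12 Ikzf2 peaks, against 14.5 for all listed peaks that fit. The exception was peak 2. The value behind its fold was 58.5, and 2 times that, 117, is whole, as 2 reads in 1 input and 1 in the other would give. The difference between the touching peaks 1 and 2 therefore includes, on this reading, a change of 1 in an input count. A counted input read cannot be told from a minimum value set by the peak caller, since its rules are not given. The reading rests on the steps in the values alone, since library totals were not used. The constant was itself chosen to make the largest share of values whole, so the shares that fit are no independent match.

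What set Ikzf2 apart from most genes of the list was the number of its peaks, the property it was chosen for. A gene with a peak had a median of 2, and Ikzf2 stood at rank 21 of 1626 gene symbols, a place it shared with 5 others (6 genes in all had 13). With touching peaks joined, its 12 separate regions stood at rank 8, a place held by 3 genes in all. Its strongest peak was above that of 82.8% of genes, with a median of 4.69 over genes. Among the 41 genes with 10 or more peaks, though, only 4 had a weaker strongest peak than Ikzf2. In that group the strongest peak had a median log2 fold of 6.69 (range 5.37 to 11.0), and the median peak of Ikzf2 was the 6th lowest, at 4.55 against a median of 5.44 over those genes. Compared with the other genes of many peaks, Ikzf2 thus had folds at the low end. These ranks are descriptions and are not set against mRNA amounts.

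The genes most like it in pattern were taken from genes of 10 to 16 peaks by the distance over 4 scaled measures (the shares of the 3 classes and the median log2 fold), so their likeness in these measures follows from the choice. None had a 5' UTR peak, and exon peaks numbered 1 in 4 of the 5 genes. The nearest was Fnbp1, which encodes a membrane-bending protein that acts on actin, with 13 peaks in the 3' UTR and 1 in an exon and a median log2 fold of 4.72 (distance 0.68). Lcp1, the actin-bundling protein L-plastin of blood cells, had 6 in the 3' UTR and 4 in exons with a median of 4.50 (distance 0.71). Cbx5, the heterochromatin protein HP1 alpha, had 10 and 1 with a median of 5.12 (distance 0.72).

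Next were Slc25a36, a mitochondrial carrier, with 12 and 1 peaks and a median of 5.04, and Ddx17, an RNA helicase, with 11 and 1 and a median of 5.12. The strongest peak of each of these 5 genes lay in the 3' UTR, as in Ikzf2. Its log2 fold was 5.37 in Lcp1, 5.73 in Fnbp1, 5.93 in Ddx17, 6.17 in Slc25a36 and 7.11 in Cbx5. Ikzf2, at 5.79, thus lay between Fnbp1 and Ddx17. Joined into regions, Ikzf2 had the most of these 6 genes, 12 against 9 to 11.

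Mecom and Cdk6, compared here because both have many peaks and roles in blood progenitors, had higher folds. Mecom, a zinc-finger factor needed by blood stem cells, had a median log2 fold of 6.60 over 36 peaks, and 29 of them were above the list median. Cdk6, a kinase that drives entry into the cell cycle, had a median of 5.44 over 20 peaks, all in the 3' UTR along 8585 nt, and 14 were above the list median. In Ikzf2, whose 3' UTR block is of like length, 4 of the 10 peaks in the 3' UTR were, and 5 of 13 with the exon peaks counted. The difference was not tested, since the list holds 1 value per peak. The amounts of these mRNAs were not used, so the folds are not set against expression.

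**Figure D3:**
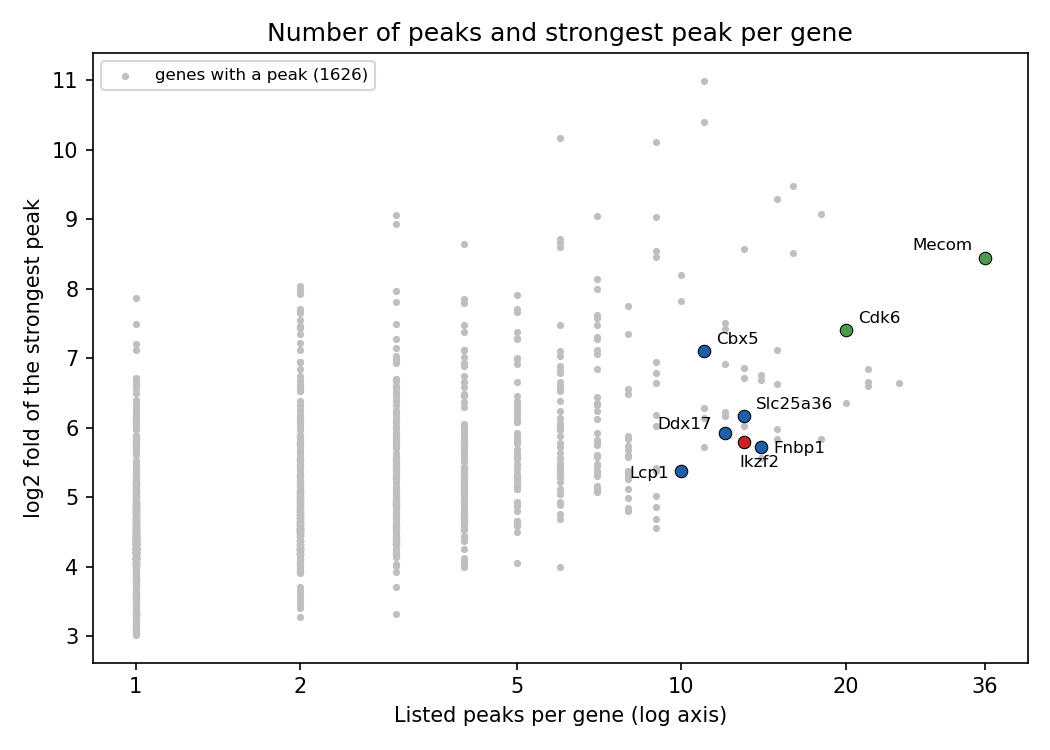
Number of listed peaks (horizontal axis, log scale) and log2 fold of the strongest peak (vertical axis) for the 1626 gene symbols; Ikzf2 is red, the 5 genes most like it blue, Mecom and Cdk6 green. Ikzf2, with 13 peaks and a strongest fold of 5.79, lies at the lower edge of the genes with 10 or more peaks.

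None of the other 4 Ikaros family genes had a listed peak, where 7.33% of all protein-coding genes had one, so a count of 0 among 4 genes is near that share. Ikzf1 (Ikaros, needed for lymphocyte development), Ikzf3 (Aiolos, of B cells and plasma cells), Ikzf4 (Eos, a partner of Foxp3 in regulatory T cells) and Ikzf5 (Pegasus) were the genes without one. Absence from the list does not mean that NAT10 is absent from an mRNA, and the amounts of these mRNAs in 32D cells were not used here.

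Known partners of the Ikaros family were listed beside Ikzf2. Of 13 genes of the NuRD complex 7 had a peak (53.8%, against the same 7.33%). Of the 13, 3 had one above the list median fold, where 3.95% of all protein-coding genes did. Both base shares count all protein-coding genes, whether or not the cells used here express them. The gene list was also chosen with earlier results of these data known. Whether NAT10 favours NuRD mRNAs was not tested. The strongest of the NuRD genes was Gatad2b, a scaffold subunit, with 8 peaks (5 regions) in the 3' UTR and a log2 fold up to 6.55. Mta3, another subunit, had a single 3' UTR peak of 6.50.

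Rbbp4, a histone-binding subunit, had 6 peaks, all in exons, up to 5.35. The remodelling ATPase Chd4 had an exon peak of 4.05 and a 3' UTR peak of 3.65, and its relative Chd3 an exon peak of 4.41. Gatad2a (3.81) and the methyl-DNA binding Mbd2 (4.34) had 1 peak each in the 3' UTR. Like Ikzf2, Gatad2b carried its peaks along a long stretch of 3' UTR (4900 nt), but 6 of its 8 were above the list median.

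Mta1, Mta2, Hdac1, Hdac2, Mbd3 and Rbbp7 had no listed peak. Of the other co-repressors that Ikaros proteins bind, 1 of 4 had a peak (7.33% over all protein-coding genes), a count too small to read against that share. It was the scaffold Sin3b with 3.55 in its 3' UTR, and Sin3a, Ctbp1 and Ctbp2 had none. Drugs of the thalidomide class degrade some Ikaros family proteins in human cells through a ubiquitin ligase built around cereblon. Of the 5 ligase genes examined, 2 had a peak, beside the same 7.33%. These were the adaptor Ddb1, with 4.32 and 4.23 in exons, and the RING subunit Rbx1, with 3.32 in its 3' UTR, and Crbn, Cul4a and Cul4b had none. All peaks of the ligase genes and of Sin3b lay below the list median fold. The amounts of these mRNAs were not used here either, so the counts are not set against expression.

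**Figure D4:**
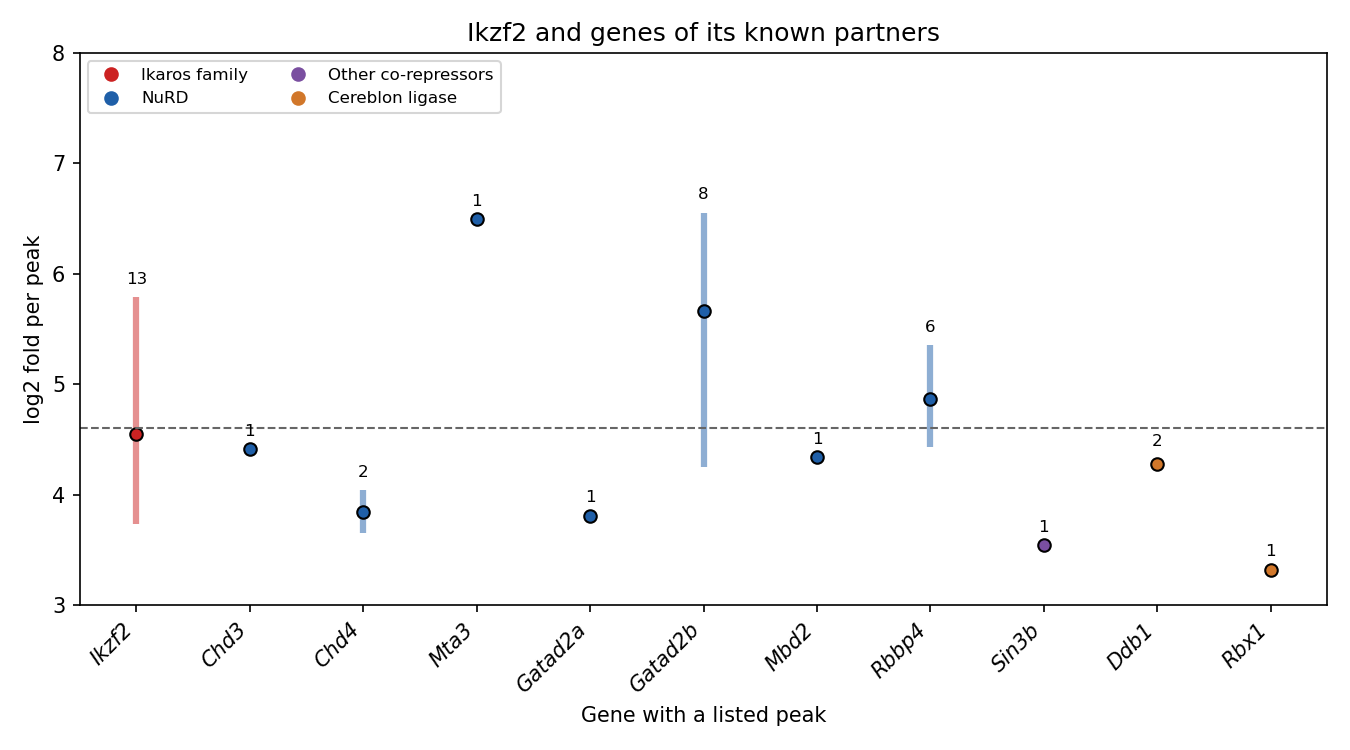
Log2 fold per peak (vertical axis) for Ikzf2 and each partner or cereblon ligase gene with a listed peak (horizontal axis). Bars run from the weakest to the strongest peak, circles are medians and numbers count the peaks. Colours mark the lists and the dashed line is the list median of 4.60. Gatad2b, Mta3 and Rbbp4 reach above that line, with strongest peaks of 6.55, 6.50 and 5.35.

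The label of the cells was set against marker genes as far as a peak list allows. Of 10 myeloid and mast cell genes 2 had a peak, beside 7.33% of all protein-coding genes. Such a count is too small to read against that share. The genes were Prtn3, a granule protease (up to 4.19), and Csf2rb, a subunit of cytokine receptors (up to 5.0). Mpo, Elane, Ctsg, Ms4a2, Cpa3, Il3ra, Cebpa and Spi1 had none. Of 8 T cell genes and 6 B cell genes 0 had one, Foxp3 and Cd3e included, which is near the share over all genes. Peaks are no measure of expression, so these counts do not settle the identity of the cells.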

How the data were processed

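The deposited data were 1 peak list of 4206 rows from 2 immunoprecipitates and 2 inputs of 32D cells. Per the submitters' processing notes the build was GRCm39; aligner, caller, replicate rule and cut-offs: not given in the sources used here. From its range and steps, the authors' fold column was read as log2. The authors' p column, which runs from 3.07 to 400, was read as -log10 p; whether it was adjusted is not stated. Each peak was counted once, and peaks with no base between them were joined into regions. Symbols were matched to the GRCm38.p6 RefSeq gene table, directly or through a unique synonym (1609 of 1626), for names and gene types alone. The planned test across libraries could not be run, since the list has no value per library, and depth per library is unknown. The members and lists were chosen with earlier results of these data known. Genes named are Ikzf2, its family, every partner or cereblon ligase gene with a peak and the 5 nearest genes by pattern; Mecom, Cdk6, the marker genes and those without a peak were added. Functions were checked on made-up peaks. Python 3.11.15, pandas 2.3.3 and scipy 1.17.1 were used.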

Additional observations from a re-analysis of the deposited data

How the results depend on the processing

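The 3' UTR share of 76.9% was 83.3% after joining touching peaks, 81.5% by bases and 80% with peaks above the list median by fold or by -log10 p; these reuse the same 13 peaks, so they are no check on its wide interval. The number of Ikzf2 peaks was 12 after joining, and 5 above the median fold or above the median -log10 p. The median log2 fold was 4.58 after joining, 4.58 over 3' UTR peaks and 5.08 above the median -log10 p. The percentile of the strongest peak among genes, 82.8, was 76.0 by -log10 p, 57.1 with the median peak of each gene and 9.76 among genes with 10 or more peaks. Rank 21 by number of peaks (6 genes tied) became 8 after joining (3 genes tied) and 66 with peaks above the median fold. Of 22 partner and ligase genes, 10 had a peak (7.33% over all protein-coding genes) and 3 had one above the median fold (3.95%). These base shares take no account of expression. By -log10 p the Spearman rho along the 3' UTR was 0.72. The 3' UTR-only median, the 3' UTR share by -log10 p, both rho alternatives and the partner count with stronger peaks were chosen after seeing the data. No paired analysis was possible because the list holds no value per library; leaving out replicates was not run for the same reason. The folds of up to 82.8% of listed peaks, and of up to 12 of the 13 Ikzf2 peaks, can rest on 1 input read per library, which limits their precision.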

Other observations

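Peaks of equal fold did not have equal p. Within Ikzf2, peaks 8 and 10 shared a log2 fold of 4.50 with -log10 p of 5.46 and 4.53, and peaks 3 and 4 shared 4.19 with 3.34 and 3.68. With a single input read per library assumed, the product of the immunoprecipitate reads was 168 for the first pair and 110 for the second. Over the whole list, 2505 peaks gave a whole product under 500, and 0 of these products was a prime number above 50. Products of 2 read counts of moderate size hold no such prime, so this bears on the reading of the fold column as a mean of 2 log2 ratios.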
